A study of Mus musculus with 64 samples.

Results

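The testis of the juvenile mouse runs through the first wave of spermatogenesis in near synchrony, so that whole testes taken a few days apart differ by the meiotic stages their germ cells have reached. The libraries described here are the 6 RNA-Seq libraries of whole Morc1tg/tg testis, 3 from P10.5 and 3 from P14.5 (P for postnatal day), out of 64 samples in the series, 47 of them RNA-Seq libraries. They were chosen by their labels alone, as the testis libraries of the homozygous mutant at both ages, and set against each other to see which meiotic changes in gene expression still took place without MORC1. The same step in age was measured in the Morc1tg/+ control with 2 libraries at P10.5, replicates 2 and 3, and 3 at P14.5.

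Morc1tg is an FVB/N allele in which a tyrosinase transgene lies in the Morc1 locus and early exons of the ATPase domain are lost, so reads on the other exons can remain. The mutation was present in every cell from conception, Morc1tg/+ mice carried 1 copy of it, and the labels name no treatment of either genotype. Each library came from 1 mouse, and the RNA was polyadenylated RNA of the whole organ, with all of its somatic cells. Morc1tg/tg males are infertile. Gene counts summed to 25144796 to 38113208 reads in the Morc1tg/tg libraries of P10.5 and to 22509570 to 25851886 in those of P14.5. In Morc1tg/+ the sums ran from 25148153 to 28750656 at P10.5 and from 23529706 to 27325926 at P14.5.

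Meiosis in the male starts when spermatogonia that have been primed by retinoic acid switch on Stra8 and then replicate their DNA a last time. In leptotene the chromosomes condense along cohesin axes and SPO11 cuts the DNA, and in zygotene the homologs pair and the synaptonemal complex closes between them. In pachytene the breaks are repaired, some of them as crossovers, while the X and Y chromosomes are silenced in the sex body. Mid-pachytene also brings a large new transcriptional programme, driven in part by MYBL1 and BRDT, that includes genes for the later spermatid and for the pachytene piRNAs. In the first wave, leptotene spermatocytes appear around P10.5 and pachytene spermatocytes around P14.5.

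Morc1 itself, a germ cell GHKL ATPase of the Morc family (chr16:48431350-48631018 in mm9), was read at low level in the mutant, which checks the labels. Its level in RPKM, the reads per kilobase of exon scaled to a fixed number of mapped reads, was 2.41, 2.06 and 2.32 in the 3 Morc1tg/tg libraries of P10.5 and 3.49, 2.63 and 3.01 in those of P14.5. The Morc1tg/+ libraries read 6.29 and 6.46 at P10.5 and 8.28, 7.73 and 8.77 at P14.5, so no mutant library overlapped a control library. The mean of the mutant was 35.5% of that of the control at P10.5 and 36.9% at P14.5. With age, Morc1 rose in Morc1tg/tg by 0.41 ± 0.11 on the log2 scale (SE implied by the F statistic, adjusted p = 0.00809, edgeR). In Morc1tg/+ it rose by 0.37 ± 0.11 (adjusted p = 0.0115). Adding a Morc1+/+ library to the P10.5 controls also changes the dose of this gene in that group. Both calls were lost with it (adjusted p = 0.0701 in Morc1tg/tg, and 0.568 with a change of 0.11 in Morc1tg/+). That in Morc1tg/+ was also lost without its P10.5 replicate 2 (0.0728) or 3 (0.0642).

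Of 26385 genes in the deposited tables, 15849 had enough reads to be tested in one fit of all 11 libraries, and a gene was called at an adjusted p under 0.05. Between P10.5 and P14.5, 3122 genes rose in Morc1tg/tg (19.7% of those tested) and 3554 fell (22.4%). In Morc1tg/+, 4131 rose (26.1%) and 3905 fell (24.6%). The rises of both genotypes held 2194 genes in common, which are 70.3% of the rises in Morc1tg/tg and 53.1% of those in Morc1tg/+. The falls held 2748 in common, 77.3% of those in Morc1tg/tg and 70.4% of those in Morc1tg/+. Of 1269 genes that rose by at least 1 on the log2 scale in Morc1tg/+, 50.5% rose in Morc1tg/tg, against 44.9% of 543 that rose by at least 2 and 22.8% of 149 that rose by at least 4. In the test of the genotype difference described next, 422 of the 1269, 233 of the 543 and 64 of the 149 rose less far in Morc1tg/tg. These genes were picked by their rise in Morc1tg/+, so they are a description of the control's programme in the mutant and not a test.

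Whether a gene moved differently with age in the 2 genotypes was tested directly, as the change in Morc1tg/tg minus the change in Morc1tg/+. By this test 832 genes moved lower in the mutant (5.25% of those tested) and 145 moved higher (0.915%). Of the 832, 790 had risen in Morc1tg/+, and these were split between 240 that rose in Morc1tg/tg too, 503 that were not called there and 47 that fell there. The 832 became 293 without Morc1tg/+ P10.5 replicate 2 and 347 without replicate 3, each of which leaves 1 control at that age, 451 without Morc1tg/tg P10.5 replicate 3 and 520 without Morc1tg/tg P14.5 replicate 3. The 145 became 41 without Morc1tg/+ P10.5 replicate 2, 71 and 89 without Morc1tg/tg P10.5 replicates 2 and 3, and 73 and 52 without Morc1tg/+ P14.5 replicates 1 and 3. They became 293 without Morc1tg/tg P14.5 replicate 1 and 261 without Morc1tg/+ P14.5 replicate 2. The 145 thus moved by over 1.5 times with single libraries of all 4 groups, and the 832 with those of all groups but Morc1tg/+ at P14.5.

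**Figure D1:**
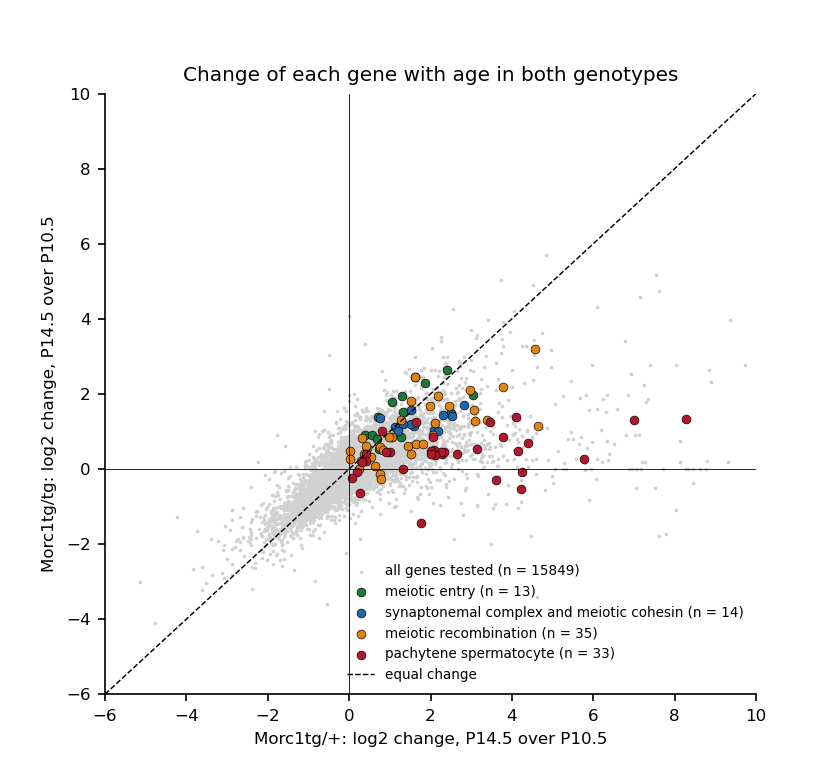
Change from P10.5 to P14.5 of each tested gene, as log2 change in Morc1tg/+ (horizontal axis) against log2 change in Morc1tg/tg (vertical axis), with the members of 4 gene lists coloured, and 5 genes outside the axes not drawn. Most members of the meiotic entry list lie near or above the diagonal, while many of the pachytene list lie far to the right and close to 0 on the vertical axis, as Piwil1 with 4.14 in Morc1tg/+ and 0.49 in Morc1tg/tg.

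In whole testis, fewer cells of a type and less RNA per cell cannot be told apart, and the share of germ cells can shift every germ cell gene together. The summed RPKM of the 27 Sertoli cell genes ran from 6960 to 7643 in Morc1tg/tg at P10.5 and from 7105 to 8769 at P14.5. In Morc1tg/+ it ran from 6323 to 6665 at P10.5 and from 5561 to 6129 at P14.5. At both P10.5 and P14.5 the mutant libraries thus all lay above the controls of their age. The part of this difference in the germ cell results below was not tested. The tissue was testis by its markers, with Sertoli, Leydig and germ cell genes all read, while of 10 genes of the epididymis 2 had enough reads to be tested and 3 (Lcn5, Lcn9 and Gpx5) had no read, with a summed RPKM of the list from 5.74 to 12.1 over the 11 libraries.

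Genes of meiotic entry rose in the mutant. All 13 of that list passed the test in Morc1tg/tg, and the same 13 rose in Morc1tg/+, beside 19.7% and 26.1% of all genes. Their median log2 change was 1.53 in Morc1tg/tg and 1.27 in Morc1tg/+, against 0.00 and 0.01 over all genes tested. Their summed RPKM started lower in the mutant, at 134 to 155 in the P10.5 libraries against 277 to 280 in the controls, and reached 322 to 382 at P14.5 against 783 to 951. By the test of the difference 4 moved higher in the mutant and 1 lower (0.915% and 5.25% over all genes), and the 4 were 2 without Morc1tg/tg P10.5 replicate 2, without its replicate 3 or without Morc1tg/+ P14.5 replicate 3.

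Stra8, the retinoic acid target that licenses meiotic initiation, read 13.2, 10.3 and 12.3 RPKM in the Morc1tg/tg libraries of P10.5 and 48.8, 43.0 and 33.1 in those of P14.5. In Morc1tg/+ it read 28.2 and 35.1 at P10.5 and 67.3, 66.8 and 61.6 at P14.5. The ages did not overlap in either genotype, and 2 of the 3 mutant libraries of P14.5 lay above both controls of P10.5. Stra8 rose by 1.79 ± 0.13 in Morc1tg/tg (adjusted p = 5.91e-07) and by 1.04 ± 0.14 in Morc1tg/+ (adjusted p = 3.59e-05). The larger rise of the mutant had an adjusted p of 0.0275, which was over the threshold without Morc1tg/tg P10.5 replicate 2 (0.0687) or replicate 3 (0.0517) and without Morc1tg/+ P10.5 replicate 3 (0.110) or P14.5 replicate 3 (0.0672).

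Prdm9, the histone methyltransferase that sets the places of meiotic DNA breaks (chr17:15680043-15701318), had the largest rise in the mutant among genes that moved higher there and belong to the meiotic lists. It read 1.32, 1.22 and 1.42 RPKM at P10.5 and 7.58, 7.56 and 6.66 at P14.5 in Morc1tg/tg. In Morc1tg/+ it read 3.96 and 4.56 at P10.5 and 12.7, 12.5 and 14.0 at P14.5. Every mutant library was below every control of its age, but those of P14.5 were above the controls of P10.5. Prdm9 rose by 2.44 ± 0.10 in Morc1tg/tg (adjusted p = 1.29e-08) and by 1.62 ± 0.10 in Morc1tg/+ (adjusted p = 1.32e-07), a difference of 0.82 ± 0.14 (adjusted p = 0.00387). D6Mm5e, the file's name for M1ap, which is needed in meiotic prophase, behaved likewise, with rises of 1.39 and 0.71 and a difference of 0.68 ± 0.11 (adjusted p = 0.00387). Prdm9 stood at 31.0% of the control mean at P10.5 and 55.6% at P14.5, and D6Mm5e at 45.8% and 74.0%, which describes levels and was not tested here.

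Tex15, needed for meiotic repair, was the last of the 4, with rises of 0.91 and 0.56 and a difference of 0.34 ± 0.09 (adjusted p = 0.0307) that was over the threshold without Morc1tg/tg P10.5 replicate 2 (0.0781) or 3 (0.0569) and without Morc1tg/+ P10.5 replicate 2 (0.112) or P14.5 replicate 1 (0.0697) or 3 (0.0533). For 3 other genes of entry the difference did not pass the test. Gm1564, the file's name for Meioc, which keeps spermatocytes out of the mitotic programme, rose by 2.28 ± 0.12 in Morc1tg/tg and 1.86 ± 0.12 in Morc1tg/+. Ccnb3, a cyclin of early meiotic prophase, rose by 2.63 ± 0.12 and 2.41 ± 0.13. Mei1, needed for the formation of meiotic breaks, rose by 1.53 ± 0.08 and 1.32 ± 0.09. The gene that moved lower was Tex101, a surface protein of spermatocytes and later germ cells. It rose by 1.96 ± 0.13 in Morc1tg/tg and by 3.05 ± 0.15 in Morc1tg/+, lower in the mutant by 1.10 on the log2 scale (difference -1.10 ± 0.18, adjusted p = 0.00387).

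**Figure D2:**
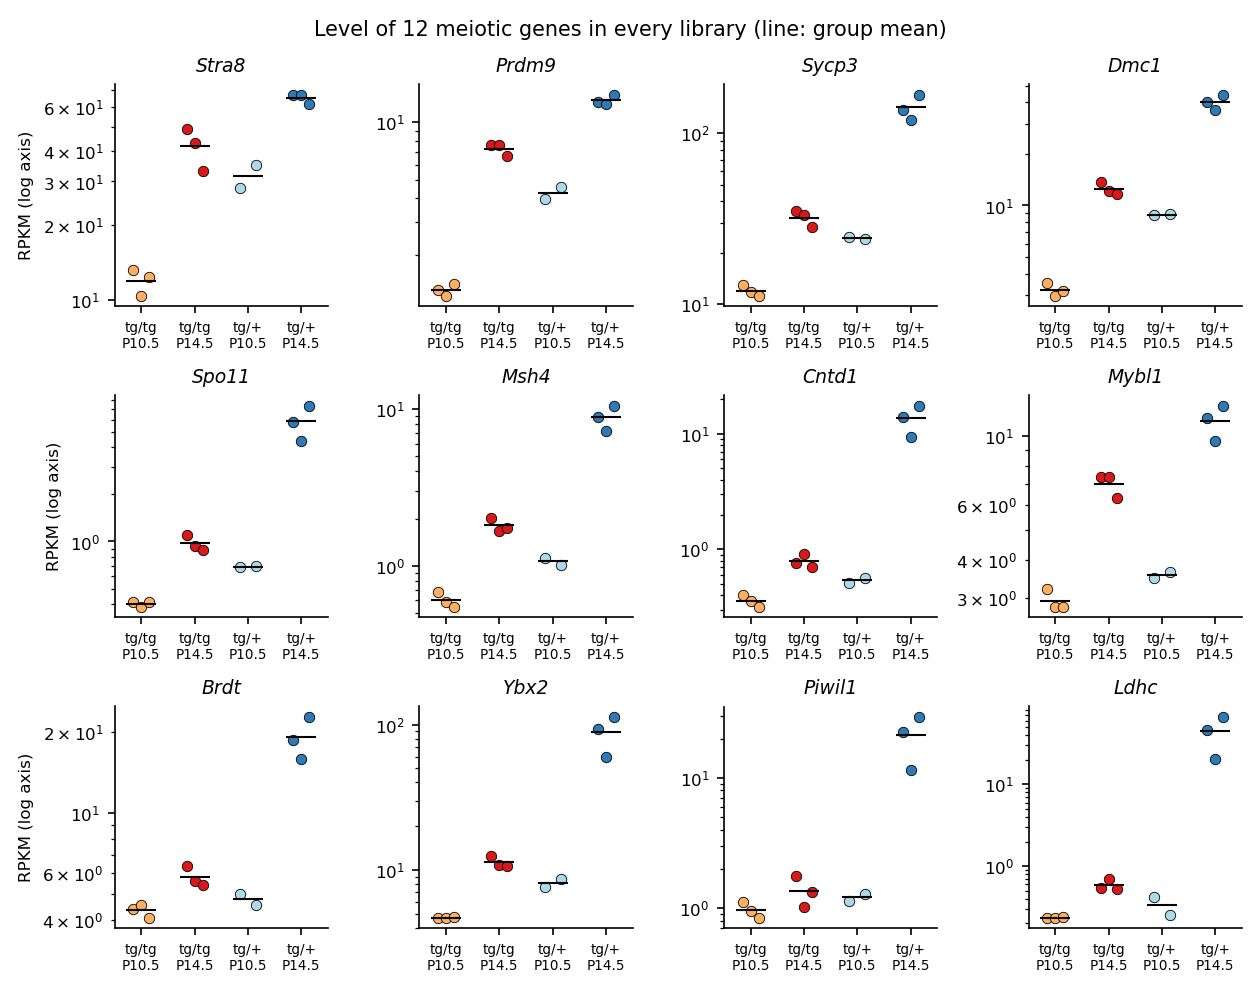
Level of 12 genes of meiotic entry, chromosome axes, recombination and pachytene in each library, as RPKM on a log axis, with 1 point per library (Morc1tg/tg 3 and 3, Morc1tg/+ 2 and 3) and a line at each group mean. From Stra8 and Prdm9 to Dmc1 the mutant libraries of P14.5 stand clear of those of P10.5, whereas for Piwil1 the mutant ages overlap, and for Piwil1 and Ldhc the controls of P14.5 stand far above all mutant libraries.

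Among the 5 recombination genes with the largest rises in the mutant, the promoters of 3 are shown. Of these, 2 hold GCGGGAA, the only E2F-type string searched, on either strand, and the third holds none of the strings searched. They were taken from RefSeq on GRCm38.p6, as windows of 300 bases that run from 250 before to 50 after an annotated start, written along the strand of the gene, and capitals mark the match. Prdm9 has a second annotated start whose window holds no match, and a window of Meiob, which had the largest rise, was not found. That of Hfm1, which is not shown, holds none of the motifs either.
Prdm9, chr17:15564305-15564604, minus strand: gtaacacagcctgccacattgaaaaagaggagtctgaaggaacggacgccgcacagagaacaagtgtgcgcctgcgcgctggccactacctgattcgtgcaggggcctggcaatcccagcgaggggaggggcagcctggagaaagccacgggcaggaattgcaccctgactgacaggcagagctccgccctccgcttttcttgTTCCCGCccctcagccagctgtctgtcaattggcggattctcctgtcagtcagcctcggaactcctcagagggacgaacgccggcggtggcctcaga
Spata22, chr11:73329491-73329790, plus strand: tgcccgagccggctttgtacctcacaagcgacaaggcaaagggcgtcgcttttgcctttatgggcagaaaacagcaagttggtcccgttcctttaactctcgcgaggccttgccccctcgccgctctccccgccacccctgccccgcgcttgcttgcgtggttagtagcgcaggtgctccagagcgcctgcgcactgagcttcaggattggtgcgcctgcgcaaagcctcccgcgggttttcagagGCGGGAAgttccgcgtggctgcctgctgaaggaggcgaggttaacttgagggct
Dmc1, chr15:79605060-79605359, minus strand: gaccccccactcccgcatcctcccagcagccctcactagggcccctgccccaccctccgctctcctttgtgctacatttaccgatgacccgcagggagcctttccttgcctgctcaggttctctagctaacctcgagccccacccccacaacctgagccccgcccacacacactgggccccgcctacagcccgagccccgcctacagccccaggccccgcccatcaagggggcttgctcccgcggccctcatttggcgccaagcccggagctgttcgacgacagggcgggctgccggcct
The motifs searched, on both strands, were GCGGGAA (E2F-type), CACGTG (E-box), TGACGTCA (CRE) and CAACNGNC (MYB-type), which do not contain one another. In the window of Prdm9 the E2F-type match lies on the reverse strand. Over all 27025 genes with a window, 5.29% held GCGGGAA, 8.09% CACGTG, 2.03% TGACGTCA and 11.6% CAACNGNC. Of the genes of each list with a window, GCGGGAA was held by 6 of 14 for the synaptonemal complex and cohesin, 9 of 27 for recombination, 2 of 11 for entry, 2 of 19 for the piRNA pathway and 0 of 21 for pachytene. In the same order CACGTG was held by 7, 3, 2, 9 and 5 genes and CAACNGNC by 0, 3, 4, 5 and 5, and TGACGTCA by 1 recombination gene. A match is a string of letters and says nothing of binding. Other forms of these elements were not searched, so a window without a match, as that of Dmc1, can still hold one.

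All 14 tested genes of the synaptonemal complex and of meiotic cohesin rose in Morc1tg/tg (19.7% over all genes), as they did in Morc1tg/+ (26.1%). Their median log2 change was 1.21 in the mutant and 1.56 in the control. Their summed RPKM in the mutant was 117 to 133 at P10.5 and 264 to 304 at P14.5, while the controls went from 225 to 226 up to 696 to 916. By the test of the difference 6 rose less far in the mutant (5.25% over all genes moved lower), 8 were not called and 0 moved higher (edgeR). With DESeq2, or without Morc1tg/tg P14.5 replicate 3, 1 moved higher.

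Sycp3, the axial element protein of meiotic chromosomes (chr10:87922314-87935981), read 12.9, 11.7 and 11.1 RPKM in the Morc1tg/tg libraries of P10.5 and 34.9, 33.2 and 28.2 in those of P14.5. In Morc1tg/+ it read 24.8 and 24.0 at P10.5 and 137, 120 and 168 at P14.5. The mutant libraries of P14.5 thus lay above the controls of P10.5 and far below the controls of their own age. Sycp3 rose by 1.42 ± 0.12 in Morc1tg/tg (adjusted p = 2.89e-06) and by 2.54 ± 0.14 in Morc1tg/+ (adjusted p = 6.98e-08), a difference of -1.12 ± 0.18 (adjusted p = 0.00316).

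Hormad1, which binds unsynapsed axes and supports break formation, read 8.05, 7.07 and 7.43 RPKM at P10.5 and 26.6, 24.8 and 22.4 at P14.5 in Morc1tg/tg. In Morc1tg/+ it read 16.4 and 15.2 and then 110, 91.1 and 136. Its rises of 1.70 and 2.83 differed by -1.14 ± 0.20 (adjusted p = 0.00447). The same held for Sycp2, an axial element protein (1.49 and 2.50, difference -1.0 ± 0.16, adjusted p = 0.0029), and Syce3, of the central element (1.02 and 2.20, difference -1.17 ± 0.20, adjusted p = 0.00468). Sycp1, the transverse filament, rose by 1.04 and 2.09 with a difference of -1.05 ± 0.19 (adjusted p = 0.00574), which was over the threshold without Morc1tg/+ P10.5 replicate 3 (0.0564). Hormad2 was the last of the 6 (-0.87 ± 0.20, adjusted p = 0.0190), and its call was lost without Morc1tg/tg P14.5 replicate 3 (0.0577) and without Morc1tg/+ P10.5 replicate 2 (0.126) or 3 (0.0694).

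The meiotic cohesins and some central element genes rose by amounts whose difference did not pass the test by edgeR. Syce1, of the central element, rose by 1.11 ± 0.08 in Morc1tg/tg and 1.12 ± 0.09 in Morc1tg/+. Rad21l, a kleisin of early prophase, rose by 1.57 ± 0.17 and 1.52 ± 0.18. Smc1b, the meiotic SMC subunit, rose by 1.21 ± 0.09 and 1.32 ± 0.10, and Stag3 by 1.01 ± 0.07 and 1.21 ± 0.08. Rec8, the kleisin that holds sister chromatids, rose by 1.35 ± 0.13 and 0.76 ± 0.14 (difference 0.59 ± 0.19, adjusted p = 0.0864).

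Of 35 tested genes of meiotic recombination, 30 rose in Morc1tg/tg and 32 in Morc1tg/+ (19.7% and 26.1% over all genes), with 27 in both. Their median change was 0.84 in the mutant and 1.44 in the control. By the test of the difference 15 moved lower in the mutant and 1, Prdm9, moved higher (5.25% and 0.915% over all genes). The 15 were 8 without Morc1tg/+ P10.5 replicate 2, and the 1 was 2 without Morc1tg/tg P14.5 replicate 3. Genes of the list follow by role, from the making of breaks to crossovers.

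Among genes that form breaks, Spo11, the meiotic topoisomerase-like nuclease (chr2:172803201-172819077), read 0.408, 0.380 and 0.408 RPKM in Morc1tg/tg at P10.5 and 1.10, 0.932 and 0.883 at P14.5. In Morc1tg/+ it read 0.684 and 0.698 and then 5.81, 4.41 and 7.38. It rose by 1.27 ± 0.21 in the mutant (adjusted p = 0.000371) and by 3.09 ± 0.21 in the control, a difference of -1.82 ± 0.30 (adjusted p = 0.00362). Spo11 has a splice form that acts in leptotene and another that is made in pachytene, and the counts per gene do not resolve them. Its partners Mei4 and Rec114 (2410076I21Rik in the files) rose in Morc1tg/tg by 0.84 ± 0.14 and 0.47 ± 0.09, and had changes of 0.31 ± 0.15 and 0.02 ± 0.10 in Morc1tg/+ that did not pass the test. Trip13, the ATPase that removes HORMA proteins from axes, rose by 0.28 ± 0.06 in the mutant and changed by 0.03 ± 0.07 in the control, and for all 3 the difference did not pass the test either.

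Among strand exchange genes, Dmc1, the meiotic recombinase (chr15:79391930-79435529), read 3.54, 2.96 and 3.17 RPKM in Morc1tg/tg at P10.5 and 13.7, 12.1 and 11.7 at P14.5. The Morc1tg/+ libraries read 8.81 and 8.88 and then 40.0, 36.0 and 44.3. Its rise of 1.94 ± 0.10 in Morc1tg/tg (adjusted p = 6.5e-08) was close to the 2.18 ± 0.10 of Morc1tg/+, with a difference of -0.24 ± 0.14 (adjusted p = 0.359). Spata22, a single strand binding factor whose promoter is shown above, rose by 2.09 ± 0.20 and 2.97 ± 0.20. Its partner Meiob (4930528F23Rik in the files) had the largest rise of the list in the mutant, 3.20 ± 0.23, from 0.665, 0.472 and 0.545 RPKM to 6.03, 5.32 and 4.27. In Morc1tg/+ Meiob rose by 4.56 ± 0.23, and the difference of -1.36 ± 0.35 (adjusted p = 0.0366) was over the threshold without any of 7 of the 11 libraries in turn (adjusted p from 0.0571 to 0.138).

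Mnd1 and Psmc3ip, which form the HOP2-MND1 complex that assists DMC1, did not rise in the mutant by the test. Mnd1 read 5.35, 5.75 and 5.51 RPKM in Morc1tg/tg at P10.5 and 5.15, 4.58 and 4.12 at P14.5, and in Morc1tg/+ 6.02 and 6.55 and then 10.2, 11.1 and 11.1. Its change was -0.28 ± 0.12 in Morc1tg/tg (adjusted p = 0.0706) and it rose by 0.78 ± 0.12 in Morc1tg/+, a difference of -1.06 ± 0.17 (adjusted p = 0.00308). For Psmc3ip the values were -0.13 ± 0.11 (adjusted p = 0.348) and 0.75 ± 0.12, and the difference of -0.88 ± 0.16 (adjusted p = 0.00574) was over the threshold without Morc1tg/+ P10.5 replicate 2 (0.0684).

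Among crossover genes, Msh4, of the MutS-gamma complex, rose by 1.58 ± 0.17 in Morc1tg/tg and by 3.06 ± 0.17 in Morc1tg/+, a difference of -1.48 ± 0.24 (adjusted p = 0.00337). Mcmdc2 (6030422M02Rik in the files), an MCM-like protein of homolog repair, rose by 1.30 ± 0.25 and 3.40 ± 0.26, a difference of -2.10 ± 0.37 (adjusted p = 0.00468). Hfm1, a helicase of crossover formation, rose by 2.18 ± 0.22 and 3.77 ± 0.22. Its difference of -1.59 ± 0.31 (adjusted p = 0.00846) was over the threshold without Morc1tg/+ P10.5 replicate 2 (0.0557) or 3 (0.0528). Msh5, the partner of MSH4, rose by 1.66 and 2.45, and its difference of -0.78 ± 0.18 (adjusted p = 0.0188) was lost without Morc1tg/tg P10.5 replicate 3, P14.5 replicate 2 or 3 or either control of P10.5 (adjusted p from 0.0553 to 0.119). Spo16 (1700028K03Rik in the files), a crossover factor, rose by 0.91 and 2.07, a difference of -1.17 ± 0.23 (adjusted p = 0.00953) lost without Morc1tg/+ P10.5 replicate 2 (0.0517) or 3 (0.0607). Of the pair that brings BRCA2 to meiotic breaks, Hsf2bp rose by 1.22 and 2.10 and Brme1 (4930432K21Rik) by 0.61 and 1.44. Their differences of -0.88 ± 0.17 (adjusted p = 0.00818) and -0.84 ± 0.16 (adjusted p = 0.0072) were lost without Morc1tg/+ P10.5 replicate 2 (0.0700 and 0.0773), and that of Hsf2bp also without replicate 3 (0.0510).

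The widest gap of the list was that of Cntd1 (chr11:101140326-101157631), a cyclin-like protein that designates crossovers in mid-pachytene. It read 0.407, 0.356 and 0.317 RPKM in Morc1tg/tg at P10.5 and 0.763, 0.919 and 0.701 at P14.5. Its control levels were 0.511 and 0.571 at P10.5 and 13.8, 9.33 and 17.5 at P14.5. The controls of P14.5 stood far above all other libraries, and the mutant mean at that age was 5.87% of theirs. Cntd1 rose by 1.14 ± 0.30 in Morc1tg/tg (adjusted p = 0.0083) and by 4.64 ± 0.28 in Morc1tg/+, a difference of -3.50 ± 0.43 (adjusted p = 0.00111).

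Among the recombination genes that moved lower were 3 whose proteins act at unsynapsed chromosomes and the sex body, Atr, Mdc1 and Topbp1. Atr and Mdc1 rose in both genotypes and Topbp1 was called in the control. Brca1, of the same list, rose in Morc1tg/+, a call lost without either control of P10.5, and its difference did not pass the test. Atr, the checkpoint kinase, rose by 0.66 ± 0.09 in Morc1tg/tg and 1.64 ± 0.11 in Morc1tg/+ (difference -0.98 ± 0.14, adjusted p = 0.00188). Mdc1, the adaptor that spreads phosphorylated H2AX, rose by 0.67 ± 0.09 and 1.81 ± 0.11 (difference -1.15 ± 0.14, adjusted p = 0.00111). Topbp1, an activator of ATR, changed by 0.07 ± 0.06 in the mutant (adjusted p = 0.348) and rose by 0.65 ± 0.07 in the control (difference -0.57 ± 0.09, adjusted p = 0.00264).

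Of the 7 genes that attach telomeres to the nuclear envelope in meiosis, 5 rose in Morc1tg/tg and 7 in Morc1tg/+ (19.7% and 26.1% over all genes). Terb1 (Ccdc79 in the files) and Terb2 (4933406J08Rik), which bind the telomere, rose by 1.87 ± 0.16 and 1.53 ± 0.17 in the mutant and by 2.40 ± 0.17 and 2.06 ± 0.18 in the control. The KASH protein gene Ccdc155 rose by 2.05 ± 0.21 and 2.91 ± 0.21, and Spdya, the activator of CDK2 at telomeres, by 2.20 ± 0.24 and 3.38 ± 0.23. The difference passed the test for 1 member, lower in the mutant (5.25% over all genes), and for 3 with DESeq2 or without Morc1tg/+ P14.5 replicate 2. With edgeR and all libraries the member was Sun1, the inner membrane partner of the KASH protein. It read 28.8, 27.9 and 28.0 RPKM in Morc1tg/tg at P10.5 and 29.0, 27.1 and 29.2 at P14.5, and in Morc1tg/+ 30.2 and 30.7 and then 43.4, 42.9 and 45.3. Its change was -0.01 ± 0.05 in the mutant (adjusted p = 0.944), with a sign that turned under another scaling, and 0.53 ± 0.06 in the control, a difference of -0.53 ± 0.08 (adjusted p = 0.00188).

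Of 33 tested genes of pachytene spermatocytes, 28 rose in Morc1tg/+ (26.1% over all genes) and 9 in Morc1tg/tg (19.7% over all genes), and 1, Csda, fell in the mutant, a call that was lost without any of 8 of the 11 libraries in turn and with DESeq2 or another scaling or filter. Their median log2 change was 2.11 in Morc1tg/+ and 0.44 in Morc1tg/tg, and 18 moved lower in the mutant by the test of the difference (5.25% over all genes). The 18 were 7 without Morc1tg/+ P10.5 replicate 2 and 8 without its replicate 3, and the 9 rises in the mutant were 5 without Morc1tg/tg P10.5 replicate 3 and 14 in a fit of the mutant libraries alone. Their summed RPKM was 130 to 137 in Morc1tg/tg at P10.5, 161 to 173 in Morc1tg/tg at P14.5 and 152 to 155 in Morc1tg/+ at P10.5. In Morc1tg/+ at P14.5 it ran from 412 to 748.

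**Figure D3:**
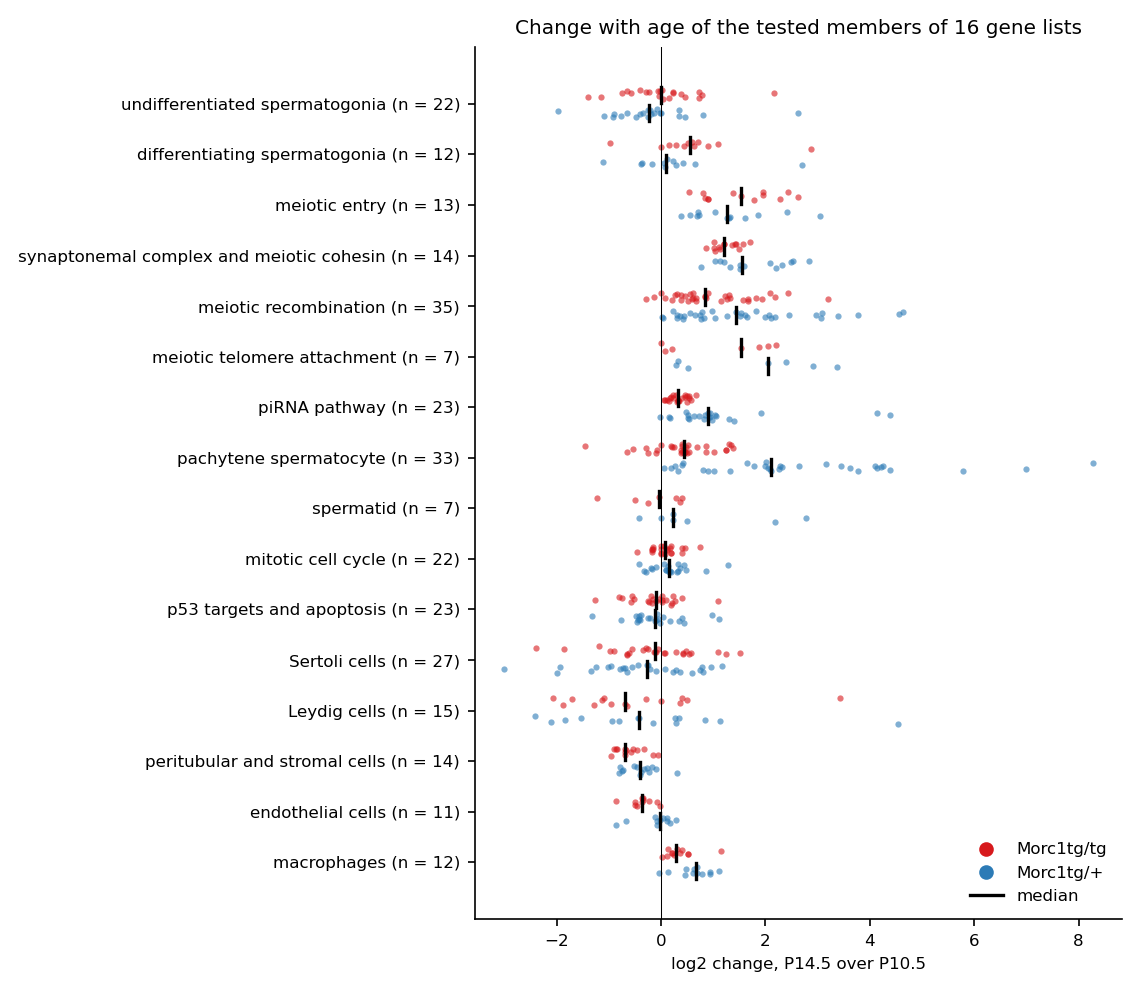
Log2 change from P10.5 to P14.5 of each tested member of 16 gene lists, in Morc1tg/tg (red) and Morc1tg/+ (blue), with a bar at the median of each list. The medians of the 2 genotypes lie close together for meiotic entry (1.53 and 1.27) and apart for pachytene spermatocytes (0.44 and 2.11).

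The transcription factor Mybl1 (chr1:9657496-9690290), which drives much of the pachytene programme, rose in both genotypes. It read 3.21, 2.81 and 2.82 RPKM in Morc1tg/tg at P10.5 and 7.36, 7.39 and 6.32 at P14.5, and in Morc1tg/+ 3.48 and 3.64 and then 11.5, 9.63 and 12.5. Its rises were 1.24 ± 0.10 in the mutant (adjusted p = 1.98e-06) and 1.65 ± 0.12 in the control, with a difference of -0.41 ± 0.15 (adjusted p = 0.138). Brdt, the testis bromodomain protein, rose by 2.00 ± 0.14 in Morc1tg/+ and by 0.40 ± 0.12 in Morc1tg/tg (adjusted p = 0.0173). The call in the mutant was lost without its P10.5 replicate 3 (0.0505) or its P14.5 replicate 1 (0.0662), while the difference of -1.60 ± 0.18 (adjusted p = 0.000835) held without each library in turn.

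Ybx2, an RNA-binding protein that stores germ cell messages (chr11:69749298-69755107), read 4.66, 4.64 and 4.73 RPKM in Morc1tg/tg at P10.5 and 12.4, 10.8 and 10.6 at P14.5. The controls read 7.59 and 8.71 and then 93.8, 60.2 and 114. The mutant libraries of P14.5 lay a little above the controls of P10.5. Ybx2 rose by 1.25 ± 0.20 (adjusted p = 0.000264) and by 3.46 ± 0.22, a difference of -2.20 ± 0.29 (adjusted p = 0.00141).

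Piwil1, the PIWI protein of pachytene piRNAs (chr5:129242121-129261349), read 1.12, 0.952 and 0.834 RPKM in Morc1tg/tg at P10.5 and 1.75, 1.01 and 1.32 at P14.5, and the ages overlapped. Control libraries read 1.13 and 1.28 and then 22.6, 11.4 and 29.6. Its change in the mutant of 0.49 ± 0.35 did not pass the test (adjusted p = 0.283), and it rose by 4.14 ± 0.36 in the control, a difference of -3.65 ± 0.50 (adjusted p = 0.00161). At P14.5 the mutant mean was 6.42% of that of the control.

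Ldhc, the sperm form of lactate dehydrogenase, had few reads in the mutant, 33 over the mutant libraries of P10.5 and 68 over those of P14.5, against 29 and 5191 in the control. It read 0.232, 0.234 and 0.237 RPKM and then 0.541, 0.695 and 0.530 in Morc1tg/tg, and 0.425 and 0.257 and then 46.0, 20.2 and 67.3 in Morc1tg/+. The mutant libraries of P14.5 lay above those of P10.5 and far below the controls of their age. Its change was 1.30 ± 0.80 in the mutant (adjusted p = 0.215) and it rose by 7.0 ± 0.55 in the control. The difference of -5.70 ± 1.22 (adjusted p = 0.0142) was over the threshold without Morc1tg/tg P10.5 replicate 3 (0.0774) and without Morc1tg/+ P10.5 replicate 2 (0.0522) or 3 (0.0532).

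Other pachytene genes whose difference held without each library in turn were Clgn, a chaperone of sperm surface proteins (0.53 ± 0.23 and 3.15 ± 0.24), and Pdha2, the testis pyruvate dehydrogenase subunit (0.39 ± 0.19 and 2.28 ± 0.20), as changes in Morc1tg/tg and Morc1tg/+. The differences were -2.62 ± 0.33 (adjusted p = 0.00121) and -1.89 ± 0.27 (adjusted p = 0.00196), and neither change in the mutant passed the test (adjusted p = 0.0790 and 0.117). Spag6, of the sperm axoneme, gave -0.29 ± 0.58 and 3.62 ± 0.48 (difference -3.91 ± 0.76, adjusted p = 0.00804). Hspa2, the chaperone bound to the synaptonemal complex, rose by 2.32 ± 0.17 in the control and by 0.46 ± 0.14 in the mutant (adjusted p = 0.0205), the latter lost without Morc1tg/tg P10.5 replicate 3 (0.0553). Its difference was -1.86 ± 0.22 (adjusted p = 0.00111). Ovol1, a zinc finger repressor needed for pachytene progression, rose by 1.01 ± 0.17 and 0.80 ± 0.17, and Ddx25, a helicase of germ cells, by 0.46 ± 0.09 and 0.90 ± 0.10, with differences that did not pass the test.

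Of the 23 genes of the piRNA pathway, 14 rose in Morc1tg/tg and 20 in Morc1tg/+ (19.7% and 26.1% over all genes), with median changes of 0.33 and 0.90, and 11 moved lower in the mutant (5.25% over all genes). The 11 were 7 without Morc1tg/+ P10.5 replicate 2 and 5 without its replicate 3. Fkbp6, which loads PIWI proteins, rose by 0.58 ± 0.06 in Morc1tg/tg and 0.53 ± 0.07 in Morc1tg/+. Tdrkh, a mitochondrial Tudor protein of piRNA trimming, rose by 0.68 ± 0.08 and 0.99 ± 0.09, and Rnf17 by 0.55 ± 0.10 and 0.95 ± 0.11, with differences that did not pass the test.

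Among the 11 that moved lower, Mov10l1 and Tdrd9 rose in both genotypes and Tdrd12 and Tdrd6 were called in the control and not in the mutant. Mov10l1, the helicase that starts piRNA processing, rose by 0.45 ± 0.09 in Morc1tg/tg and 1.30 ± 0.10 in Morc1tg/+ (difference -0.85 ± 0.13, adjusted p = 0.00247). Tdrd9 rose by 0.50 ± 0.10 and 1.40 ± 0.11 (difference -0.90 ± 0.15, adjusted p = 0.00343). Tdrd12 changed by 0.33 ± 0.14 in the mutant (adjusted p = 0.0822) and rose by 1.91 ± 0.16 in the control (difference -1.58 ± 0.21, adjusted p = 0.00153). Tdrd6, of the chromatoid body, changed by 0.05 ± 0.55 and rose by 4.39 ± 0.48 (difference -4.34 ± 0.76, adjusted p = 0.00468), with 47, 40, 23 and 683 reads over the mutant libraries of P10.5 and P14.5 and the controls of P10.5 and P14.5.

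Genes of spermatids, which form after meiosis, were near the limit of detection, with 7 of 18 tested. In Morc1tg/tg 0 of the 7 were called by edgeR, 0 had an unadjusted p under 0.05 and 0 were called by DESeq2. In Morc1tg/+ 2 rose, Spaca1 and Spata18, a share near the 26.1% over all genes, and 1 without its P10.5 replicate 3. Spaca1, of the acrosome, read 0.708, 0.724 and 0.774 RPKM and then 1.24, 0.766 and 0.734 in Morc1tg/tg, and 0.538 and 0.559 and then 2.57, 2.25 and 2.68 in Morc1tg/+ (difference -1.89 ± 0.34, adjusted p = 0.00535). Tnp1, a transition protein of condensing spermatids, had 30 and 24 reads in the mutant and 25 and 36 in the control.

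Of 12 tested genes of differentiating spermatogonia, 9 rose and 1 fell in Morc1tg/tg (19.7% and 22.4% over all genes). In Morc1tg/+ 4 rose and 3 fell, shares near the 26.1% and 24.6% over all genes. The median changes were 0.55 in Morc1tg/tg and 0.09 in Morc1tg/+. By the test of the difference 5 moved higher in the mutant (0.915% over all genes). The 5 were 2 without Morc1tg/tg P10.5 replicate 2 or 3, Morc1tg/+ P10.5 replicate 3 or Morc1tg/+ P14.5 replicate 1 or 3, and 3 without Morc1tg/tg P14.5 replicate 1 or Morc1tg/+ P10.5 replicate 2. Dmrtb1, which acts as spermatogonia pass from mitotic differentiation to meiosis, read 9.26, 7.34 and 7.69 RPKM and then 18.3, 17.2 and 16.8 in Morc1tg/tg, and 21 and 20.1 and then 26.8, 29.1 and 26.7 in Morc1tg/+. Its mutant libraries of P14.5 stayed below the controls of P10.5, with rises of 1.09 ± 0.08 and 0.42 ± 0.09 that differed by 0.67 ± 0.12 (adjusted p = 0.00466). Crabp1, a binding protein of retinoic acid, rose by 0.90 ± 0.10 in Morc1tg/tg and changed by 0.11 ± 0.11 in Morc1tg/+ (difference 0.78 ± 0.14, adjusted p = 0.0059). Prss50, a testis protease, had the largest rise of this list in both genotypes, 2.88 ± 0.11 in Morc1tg/tg (adjusted p = 9.66e-09) and 2.70 ± 0.11 in Morc1tg/+.

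Of 22 tested genes of undifferentiated spermatogonia, 5 rose and 6 fell in Morc1tg/tg, shares near the 19.7% and 22.4% over all genes, and 4 rose and 7 fell in Morc1tg/+ (26.1% and 24.6% over all genes). The 5 were 8 when libraries were scaled by their totals. Gfra1, the receptor of the niche factor GDNF, fell by 0.41 on the log2 scale in Morc1tg/tg (SE 0.10) and by 0.77 in Morc1tg/+ (SE 0.12). Etv5 and Bcl6b, transcription factors downstream of GDNF, and Lhx1 fell in both genotypes, with changes in Morc1tg/tg of -0.58 ± 0.08, -0.75 ± 0.14 and -1.40 ± 0.24. Ccnd2, a cyclin from the list of differentiating spermatogonia that is shared with somatic cells, fell too (-0.98 ± 0.08 and -1.11 ± 0.08). Utf1 rose by 2.17 ± 0.20 and 2.63 ± 0.24. Zbtb16, the marker PLZF, gave 0.03 ± 0.16 in Morc1tg/tg (adjusted p = 0.896), with a sign that turned without Morc1tg/tg P10.5 replicate 3 or P14.5 replicate 1. Kit, the receptor of differentiating spermatogonia, rose by 0.52 ± 0.17 in Morc1tg/tg (adjusted p = 0.0245), a call that was lost without Morc1tg/tg P10.5 replicate 2 (0.0804) or 3 (0.0710) or P14.5 replicate 1 (0.130).

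The X chromosome, which is silenced in pachytene spermatocytes, had 621 genes tested. Of these, 20.3% rose and 38.5% fell in Morc1tg/+, with a median change of -0.16. In Morc1tg/tg 26.7% rose and 28.3% fell, with a median of -0.02. On the 15219 autosomal genes, 26.3% rose and 24.1% fell in Morc1tg/+ and 19.4% and 22.2% in Morc1tg/tg, with medians of 0.02 and 0.00. Single autosomes had 20.1% to 29.1% rises and 21% to 35.1% falls in Morc1tg/+, and 15.2% to 22.7% and 18.9% to 32.8% in Morc1tg/tg. Chromosomes 13 and 18 came near the X in Morc1tg/+ (20.5% and 20.1% rises, 33.5% and 35.1% falls), and in Morc1tg/tg chromosome 18 had a larger share of falls (32.8%) than the X. By the test of the difference, 17 X-linked genes moved higher in the mutant (2.74%) and 5 lower (0.805%), whereas 126 autosomal genes moved higher (0.828%) and 827 lower (5.43%), with single autosomes from 0.0% to 1.19% higher and from 3.44% to 6.83% lower. The X chromosome also carries many genes of spermatogonia and Sertoli cells, whose levels are included in these shares, and their part was not tested.

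**Figure D4:**
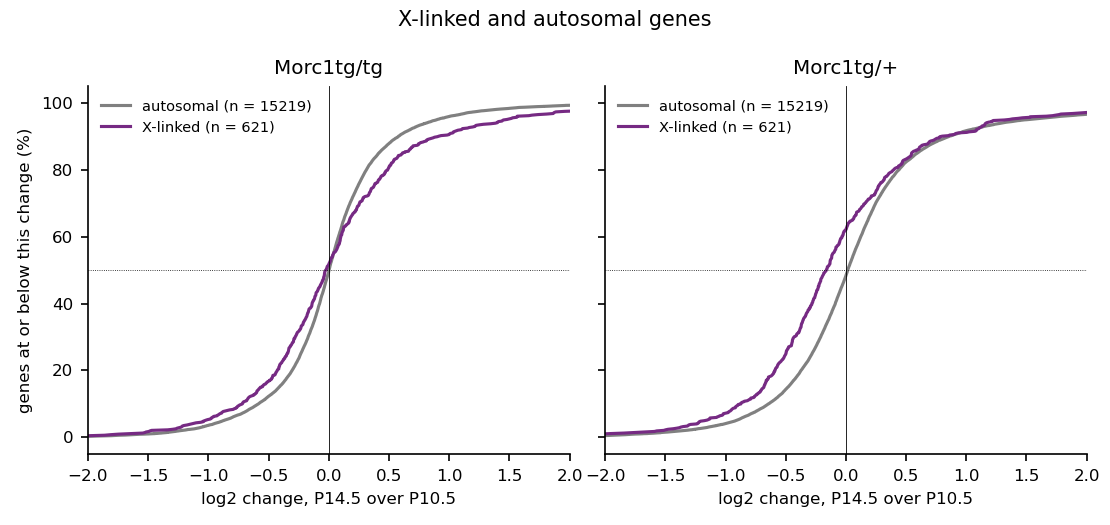
Cumulative percentage of the 621 X-linked and 15219 autosomal genes tested against their log2 change from P10.5 to P14.5, in Morc1tg/tg and in Morc1tg/+. The curve of the X chromosome lies to the left of that of the autosomes in Morc1tg/+ (medians -0.16 and 0.02) and close to it in Morc1tg/tg (medians -0.02 and 0.00).

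Among somatic cells, many Sertoli cell genes changed with age in both genotypes. Of 27 Sertoli cell genes, 9 rose and 11 fell in Morc1tg/tg (19.7% and 22.4% over all genes), against 8 and 14 in Morc1tg/+ (26.1% and 24.6% over all genes), where the 8 were 4 without its P10.5 replicate 3 and 5 without its P14.5 replicate 3. Amh, which is shut off as Sertoli cells mature, read 250, 287 and 300 RPKM at P10.5 and 75.7, 134 and 161 at P14.5 in Morc1tg/tg, and 225 and 232 and then 45.2, 83.3 and 51.7 in Morc1tg/+. All libraries of P14.5 were below all of P10.5, and Amh fell with changes of -1.19 ± 0.24 (adjusted p = 0.00164) and -1.93 ± 0.27 (difference 0.74 ± 0.36, adjusted p = 0.262). Gata4 fell (-0.97 ± 0.07 and -1.25 ± 0.08), as did Gdnf, the niche factor (-0.90 ± 0.14 and -1.34 ± 0.16), while Gata1 rose (1.25 ± 0.11 and 1.17 ± 0.13). Sox9 fell in both genotypes and less far in the mutant (-0.29 ± 0.07 and -0.73 ± 0.07, difference 0.44 ± 0.10, adjusted p = 0.0190), a difference that was over the threshold without Morc1tg/+ P10.5 replicate 2 (0.0810). Fshr, the receptor of follicle-stimulating hormone, fell by 0.61 and 0.69 on the log2 scale. Sox9 was the 1 gene of the 27 called for the difference, beside 0.915% of all genes that moved higher. Without Morc1tg/tg P14.5 replicate 1 the number called higher was 6. With all libraries 9 moved higher and 1 lower at an unadjusted p under 0.05 (edgeR).

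Of 15 Leydig cell genes, 3 rose and 9 fell in Morc1tg/tg (19.7% and 22.4% over all genes), and 1 rose and 7 fell in Morc1tg/+ (26.1% and 24.6%). The 1 was 3 without Morc1tg/tg P14.5 replicate 1 or 2 or Morc1tg/+ P14.5 replicate 3 and 2 without Morc1tg/+ P10.5 replicate 2 or P14.5 replicate 1, and the 3 in Morc1tg/tg were 1 without its P10.5 replicate 1 or 3 or its P14.5 replicate 1. By the test of the difference 0 of the 15 were called by edgeR or by DESeq2, and 1 was called lower without Morc1tg/tg P14.5 replicate 1. Hsd17b3, which makes testosterone from androstenedione, fell in both genotypes (-2.07 ± 0.18 and -2.10 ± 0.20), and so did Thbs2 (-1.70 ± 0.16 and -1.83 ± 0.18) and Ptgds (-1.88 ± 0.29 and -2.41 ± 0.34). Hsd3b6, the adult Leydig form of 3-beta-hydroxysteroid dehydrogenase, rose by 3.43 ± 0.53 and 4.53 ± 0.73. Star and Insl3 gave changes of -0.01 ± 0.46 (adjusted p = 0.994, with a sign that turned under another scaling) and 0.50 ± 0.29 (adjusted p = 0.180) in the mutant.

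Of 14 peritubular and stromal genes, 12 fell in Morc1tg/tg and 9 in Morc1tg/+ (22.4% and 24.6% over all genes). Examples are Acta2, smooth muscle actin (-0.69 ± 0.12 and -0.39 ± 0.14, the latter lost without Morc1tg/+ P10.5 replicate 2 or 3 or P14.5 replicate 2 or 3, with adjusted p from 0.0749 to 0.107), the collagen gene Col3a1 (-0.91 ± 0.11 and -0.72 ± 0.12), Dcn (-0.68 ± 0.06 and -0.46 ± 0.07) and Pdgfra (-0.85 ± 0.13 and -0.79 ± 0.14). Of 11 endothelial genes 6 fell in Morc1tg/tg (22.4% over all genes), which were 3 without its P10.5 replicate 3 or its P14.5 replicate 2 or 3, and in Morc1tg/+ 2 fell (24.6% over all genes) and 1 rose, a call lost without any of 8 libraries in turn. Of 12 macrophage genes, beside 19.7% and 26.1% of all genes, 1 rose in Morc1tg/tg (4 without its P14.5 replicate 3, and 2 without its P14.5 replicate 2 or without Morc1tg/+ P14.5 replicate 1) and 5 in Morc1tg/+ (1 without its P10.5 replicate 2 and 3 without its P14.5 replicate 1). By the test of the difference 0 genes of the peritubular, endothelial and macrophage lists were called by edgeR or by DESeq2. At an unadjusted p under 0.05 (edgeR) 2 peritubular and 2 endothelial genes moved lower and 0 macrophage genes moved. Without 1 library, 1 peritubular gene (Morc1tg/+ P14.5 replicate 2) or 1 endothelial gene (Morc1tg/tg P14.5 replicate 1) was called lower. The lists of blood, epididymis and fat held 4, 2 and 3 tested genes. Of the blood list 0 were called in either genotype by edgeR or DESeq2, with 2 falls in Morc1tg/tg and 0 in Morc1tg/+ at an unadjusted p under 0.05, but 4 fell in Morc1tg/tg without its P10.5 replicate 1 and 2 without its P14.5 replicate 1, and 2 in Morc1tg/+ without its P10.5 replicate 2. Of the epididymis list 1 fell in Morc1tg/tg and 2 in Morc1tg/+ (22.4% and 24.6% over all genes). The latter were fewer without its P10.5 replicate 2 or 3 or P14.5 replicate 1. Of the fat list 1 fell in Morc1tg/+ (24.6% over all genes), a call lost without its P10.5 replicate 3 or P14.5 replicate 3.

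Of 23 genes of the p53 response and apoptosis, 4 rose and 7 fell in Morc1tg/tg, beside 19.7% and 22.4% of all genes, and 4 rose and 6 fell in Morc1tg/+, beside 26.1% and 24.6%. The 7 were 4 without Morc1tg/tg P10.5 replicate 3 and 3 with a filter on the mean RPKM. Sesn2, a stress sensor, rose by 1.10 ± 0.11 and 1.12 ± 0.12, Bcl2l11, which encodes the BH3 protein BIM, by 0.41 ± 0.10 and 0.41 ± 0.11 (the latter lost without Morc1tg/+ P10.5 replicate 2, 0.0577, or 3, 0.0601), and Mdm2 by 0.22 ± 0.05 and 0.44 ± 0.06. Pmaip1, a BH3 gene known as Noxa, fell in Morc1tg/tg (-0.52 ± 0.10) and changed by -0.07 ± 0.11 in Morc1tg/+. Cdkn1a, the p21 inhibitor, changed by 0.26 ± 0.21 in Morc1tg/tg (adjusted p = 0.336) and rose by 0.98 ± 0.23 in Morc1tg/+. By the test of the difference 0 of the 23 were called by edgeR or by DESeq2, and 4 had an unadjusted p under 0.05 in each direction, with 1 called higher without Morc1tg/tg or Morc1tg/+ P14.5 replicate 3 and 1 lower without Morc1tg/+ P14.5 replicate 2. Of 22 mitotic cell cycle genes, 6 rose and 2 fell in Morc1tg/tg (19.7% and 22.4% over all genes), and the 2 were 1 without any of 10 of the 11 libraries in turn. In Morc1tg/+ 9 rose and 3 fell (26.1% and 24.6% over all genes), and the 9 were 5 without its P10.5 replicate 2. By the test of the difference 3 mitotic genes moved lower (5.25% over all genes), which became 0 without any of 5 libraries (Morc1tg/tg P10.5 replicate 3, its P14.5 replicates 2 and 3, Morc1tg/+ P10.5 replicate 2 and P14.5 replicate 3), 1 without Morc1tg/+ P10.5 replicate 3, and 6 and 5 without Morc1tg/tg P14.5 replicate 1 and Morc1tg/+ P14.5 replicate 2.

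In the Morc family and the DNA methylation genes, 4 of 13 rose and 1 fell in Morc1tg/tg (19.7% and 22.4% over all genes), against 3 and 5 in Morc1tg/+ (26.1% and 24.6%). The 4 were 7 without Morc1tg/tg P14.5 replicate 2, and the 1 was 2 without Morc1tg/tg P10.5 replicate 2 or Morc1tg/+ P14.5 replicate 2. By the test of the difference 1 member, Dnmt3b, moved higher in the mutant (0.915% over all genes), a call lost without Morc1tg/tg P10.5 replicate 2 or 3, among others. Lower in the mutant were 0 members by edgeR and 1 by DESeq2 (5.25% over all genes by edgeR). Morc2a rose by 0.52 ± 0.06 and 0.54 ± 0.06, and Tet1, a 5-methylcytosine oxidase, fell (-0.86 ± 0.15 and -1.15 ± 0.17). Morc2b, a Morc paralog of meiotic cells (chr17:33272533-33276628), had 0 reads over the Morc1tg/tg libraries of P10.5 and 2 over those of P14.5, against 1 and 1490 in Morc1tg/+. At P14.5 its reads per total were 713-fold higher in the control (95% interval 197 to 5892, counting error only). Its fitted difference was not called (adjusted p = 0.989) and is no measure of its size.

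The study had placed a set of genes beside regions that lost methylation in Morc1tg/tg germ cells, a choice that was not independent of these mice. For Neb, Tmc2 and Cdkl4 it reported a start site inside such a region and raised expression in Morc1tg/tg. Changes with age do not measure that difference in level between the genotypes. Of 17 genes of the set that were tested, 5 rose and 2 fell with age in the mutant (19.7% and 22.4% over all genes). In the control 4 rose and 1 fell (26.1% and 24.6%). The 2 were 1 without Morc1tg/tg P10.5 replicate 1 or 3 or P14.5 replicate 2 or 3, and the 4 were 2 without Morc1tg/+ P10.5 replicate 3. The 1 was 2 without Morc1tg/tg P14.5 replicate 2 or 3 or Morc1tg/+ P10.5 replicate 3. Kat2b rose by 0.38 ± 0.06 and 0.23 ± 0.07, the latter lost without Morc1tg/+ P10.5 replicate 2 (0.0810) or 3 (0.110) or P14.5 replicate 3 (0.0506). Neb read 1.55, 0.645 and 0.817 RPKM and then 1.24, 1.46 and 2.17 in Morc1tg/tg, with ages that overlapped and a change of 0.69 ± 0.28 (adjusted p = 0.0655). Tmc2 changed by 0.32 ± 0.28 (adjusted p = 0.379). Cdkl4 changed by 0.45 ± 0.31 in Morc1tg/tg (adjusted p = 0.261) and rose by 2.81 ± 0.42 in Morc1tg/+, from 0.0940 and 0.0958 RPKM to 0.671, 0.425 and 0.940. Its difference of -2.36 ± 0.53 (adjusted p = 0.0190) was over the threshold without Morc1tg/+ P10.5 replicate 2 (0.117) or 3 (0.0861).

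The 10 largest rises in the mutant that kept the ages apart were of mixed origin. Gja6, a connexin gene, Tsx and Gm648 lie on the X chromosome and rose in both genotypes, Gja6 by 3.64 ± 0.27 in Morc1tg/tg and 3.95 ± 0.33 in Morc1tg/+ and Tsx by 3.46 ± 0.28 and 3.77 ± 0.34. Gm648 rose by 3.62 ± 0.58 and 4.74 ± 0.65, and Aqp8, an aquaporin gene, by 5.70 ± 0.88 and 4.83 ± 0.94, with the Leydig gene Hsd3b6 beside them. Kctd19, which is expressed in meiotic prophase, rose by 4.58 ± 0.47 in Morc1tg/tg, from 0.0579, 0.0421 and 0.0304 RPKM to 1.23, 0.995 and 0.889. In Morc1tg/+ Kctd19 rose by 7.14 ± 0.33, from 0.211 and 0.150 RPKM to 26.7, 17.7 and 33.2, and the difference between the rises did not pass the test (adjusted p = 0.149).

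The other 4 rest on few reads, and the intervals given for them cover counting error only. Pdcl2 had 0 reads over the mutant libraries of P10.5 and 12 over those of P14.5, at least 4.99-fold higher if P10.5 is set to a floor of 3 reads, and its call was lost without Morc1tg/tg P10.5 replicate 3 (0.0638) or P14.5 replicate 2 (0.0651). Pth2 went from 1 to 22 reads, a ratio of 27.4 (95% interval 4.44 to 1133). Crisp2 went from 3 to 30 reads, a ratio of 12.5 (95% interval 3.88 to 63.9), and its call was lost without any of the 3 Morc1tg/tg libraries of P10.5 or without P14.5 replicate 1 (adjusted p from 0.0536 to 0.123). Reg2, a regenerating islet protein gene, had 5 reads over the mutant libraries of P10.5 and 76 over those of P14.5 but 0 in all 5 Morc1tg/+ libraries, so that at P14.5 it was at least 26.5-fold higher in the mutant.

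The 10 largest falls were shared with the control. Adamts16, a secreted protease gene of the gonad, fell from 1.82, 1.93 and 2.12 RPKM to 0.105, 0.0552 and 0.187 in Morc1tg/tg, a change of -4.11 ± 0.28, and by -4.77 ± 0.34 in Morc1tg/+. Gsg1l changed by -3.04 ± 0.21 and -3.52 ± 0.24, and Islr2 by -2.83 ± 0.21 and -2.88 ± 0.22. Krt8, an epithelial keratin gene, changed by -2.82 ± 0.32 and -3.37 ± 0.39. The other 6 were Aqp12, Rprm, Mafa, Lect1, Gchfr and Dsp, with changes in Morc1tg/tg from -2.66 to -2.41, and the 10 all fell in Morc1tg/+ as well.

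The genes that moved lowest in the mutant relative to the control had few reads in every group but Morc1tg/+ at P14.5. Lass3 (chr7:73888390-73968579), a ceramide synthase gene of the testis, read 0.249, 0.246 and 0.171 RPKM and then 0.383, 0.379 and 0.281 in Morc1tg/tg, and 0.160 and 0.162 and then 14.9, 9.46 and 20.1 in Morc1tg/+. Its change of 0.67 ± 0.42 in the mutant did not pass the test (adjusted p = 0.218), and the difference was -5.84 ± 0.61 (adjusted p = 0.000644). Fabp9, a fatty acid binding protein of the acrosome, read 0.545, 0.607 and 0.438 and then 0.810, 0.727 and 0.524 RPKM in Morc1tg/tg, and 0.474 and 0.786 and then 55.5, 29.8 and 71.0 in Morc1tg/+ (difference -5.99 ± 0.87, adjusted p = 0.00196).

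With 6 mutant and 5 control libraries, the control of P10.5 rests on 2 mice, and leaving out either of them lowered the number of genes that moved lower in the mutant more than leaving out any other library did.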

How the data were processed

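Whole testis RNA was measured by polyA RNA-Seq in 1 mouse per library. For each library the authors deposited raw gene counts, made with HTSeq on mm9 from reads mapped with Bowtie (tools as the submitters' notes name them, versions not given in the sources used here), and RPKM values, which the authors computed from these counts by gene length and mapped reads. Reads shared by near-identical genes were thus not resolved, and the annotation's symbols are old. Tests were made on the counts by edgeR 4.0.16 (quasi-likelihood fit, limma 3.58.1, R 4.3.3), after TMM scaling and filterByExpr, in 1 fit of 4 groups (11 libraries). The Benjamini-Hochberg threshold was 0.05 over the 15849 genes tested, and 5289 of 26385 genes had no read. Each SE, also where written after ±, is the size of the log2 change divided by the square root of its F statistic. It was derived from the test of that contrast and is not a standard error fitted by the model. Levels are the deposited RPKM, and folds against groups without reads use a floor of 3 reads over the group. DESeq2 1.42.0, other scalings and filters, and leaving out each library were alternatives. The members and the 21 gene lists (329 of 368 entries tested) were chosen with earlier results of these data known. Besides list members, the text names the 10 largest rises and falls in Morc1tg/tg without overlap of the ages and the 10 largest differences each way, with a group mean of at least 1 RPKM. A Morc1+/+ library served only in an alternative, and 2 preliminary libraries and repeat families were not analysed here. The fit was also run on simulated counts with 200 genes changed, in the Morc1tg/tg group of P14.5 alone. Far more genes were called here in each genotype, so that setting differs from the data. All replicates differed beyond sampling noise (chi-square per gene of the closest 2 libraries, 5.785). P-values measure the spread between mice of 1 group.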

Additional observations from a re-analysis of the deposited data

Results flagged for a closer look

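Each result below was picked out because the change from P10.5 to P14.5 differed between the genotypes by the test of the difference. In all, 145 genes moved higher in Morc1tg/tg and 832 moved lower. The values are Morc1tg/tg minus Morc1tg/+ on the log2 scale, with adjusted p from edgeR. The explanations for them were not tested.

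Of the 10 largest differences toward Morc1tg/tg, 3 kept their call without each library in turn. Ky fell in both genotypes, from 6.14, 4.05 and 4.71 RPKM to 1.98, 1.76 and 2.51 in the mutant and from 2.05 and 3.52 to 0.139, 0.170 and 0.128 in the control, a difference of 2.97 (adjusted p = 0.00111). Shisa6, a gene of undifferentiated spermatogonia, also fell in both, with a difference of 1.57 (adjusted p = 0.00468), and Esx1, an X-linked homeobox gene, rose in both, with a difference of 1.05 (adjusted p = 0.00188). The other 7 lost the call without 4 to 8 of the libraries in turn: Pde7b (1.57), Popdc3 (1.23), Hrk (1.20), Otud6a (1.19), Kcnma1 (1.05), Creb5 (1.02) and Faim2 (0.99). Their adjusted p was 0.0237 to 0.0389 with all libraries and 0.0715 to 0.183 without Morc1tg/+ P10.5 replicate 2, which ended the call of each.

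Of the 10 largest differences toward Morc1tg/+, Lass3 (-5.84), Ptchd3 (-6.13), Fabp9 (-5.99), Zmynd10 (-5.92) and 4833427G06Rik (-8.83) were past the threshold without each library in turn, and so was 4930463O16Rik (-9.54). Fitted values of genes with almost no reads in a group are no measure of size. The intervals given below for ratios of reads cover counting error only. 1700006A11Rik (-13.11) had 0 reads over the controls of P10.5 and 1639 over those of P14.5, at least 387-fold higher, and its adjusted p of 0.0449 was over the threshold without any of 9 libraries in turn. 4833427G06Rik went from 0 to 125 reads, at least 29.5-fold higher. 4930463O16Rik went from 1 to 392 reads, a ratio of 278 (95% interval 49.6 to 11000). Odf4 (-7.55) went from 2 to 420 reads, a ratio of 149 (40.9 to 1233), Gtf2a1l (-5.83) from 3 to 255, a ratio of 60.2 (20.4 to 294), and Fbp1 (-6.71) from 5 to 436. The calls of these 3 were lost without 3, 4 and 6 libraries in turn, among them both controls of P10.5.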

How the results depend on the processing

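In Morc1tg/tg, 114 of 151 genes followed by name passed the threshold and 105 kept call and direction under every alternative computed. For the difference between genotypes these numbers were 69 of 111 and 42, and no gene past a threshold reversed. These tallies leave out other members of the gene lists. Some of those lost the call of the difference as well, as Sohlh1, Mael and Cetn1, and Csda lost its fall in Morc1tg/tg. Of 798 alternative counts of list members that rose or fell in Morc1tg/tg, 59 moved by over 1.5 times. Counts over all genes stayed within 1.5 times in each genotype (rises 2547 to 3856 in Morc1tg/tg and 3153 to 4642 in Morc1tg/+, falls 2487 to 3646 and 3156 to 4375). Scaling by library totals gave 3856 rises and 2972 falls in Morc1tg/tg in place of 3122 and 3554. The 145 genes that moved higher were 303 by DESeq2 (989 lower), 320 with no filter on low counts (729 lower) and 233 with the Morc1+/+ library added. Without 1 library in turn they were 41 to 293, and the 832 that moved lower were 293 to 1116. The cause was not tested.

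Replicate numbers did not pair the samples across ages (correlation of same-numbered deviations 0.005, 0.058 and -0.004 in Morc1tg/tg and -0.028 and 0.011 in Morc1tg/+). The paper describes the Morc1tg/+ mice as littermate controls, and the labels name no litters. Same-numbered libraries of both genotypes gave -0.156 and -0.008 at P10.5 and 0.305, 0.026 and -0.079 at P14.5. With the replicate number as a block, 3091 genes rose and 3561 fell in Morc1tg/tg, 3977 and 3748 in Morc1tg/+, and 113 moved higher and 724 lower by the difference. Among the genes named by rule or in the lists, the block put the differences of Meiob (adjusted p = 0.0592), Hrk (0.0514), Spata18 (0.0619), Mael (0.0531), Tdrd7 (0.0645) and Sohlh1 (0.0776) over the threshold.

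Of the changes in Morc1tg/tg that were not called, these turned sign under an alternative (log2). Zbtb16 was 0.030 and -0.093 to 0.22 without 1 library in turn. Tnp1 was -0.041, 0.0088 with library totals and -0.35 to 0.33 without 1 library in turn. Star was -0.0059, 0.0046 with DESeq2, 0.016 with RLE scaling, 0.044 with library totals, 0.027 with no filter, 0.012 with an RPKM filter, 0.013 with the replicate block, 0.0046 with its own genotype alone and -0.31 to 0.33 without 1 library in turn. Hrk was 0.10 and -0.037 to 0.34 without 1 library in turn. Odf4 was -0.50 and -0.88 to 0.47 without 1 library in turn. Gtf2a1l was -0.035, 0.014 with library totals and -0.61 to 0.55 without 1 library in turn. Sun1 was -0.0054, 0.015 with DESeq2, 0.016 with RLE scaling, 0.044 with library totals, 0.028 with no filter, 0.012 with an RPKM filter, 0.0063 with its own genotype alone and -0.014 to 0.057 without 1 library in turn. Spag6 was -0.29 and -0.75 to 0.11 without 1 library in turn. Tdrd6 was 0.051 and -0.38 to 0.27 without 1 library in turn.

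Of the differences that were not called, these turned sign. Morc1 was 0.037 and -0.060 to 0.17 without 1 library in turn. Smc1b was -0.11 and -0.20 to 0.0066 without 1 library in turn. Ccna1 was -0.010, 0.0036 with RLE scaling, 0.016 with library totals, 0.042 with no filter, 0.14 with the replicate block and -0.20 to 0.25 without 1 library in turn. Tnp1 was -0.048, 0.0064 with no filter, 0.084 with the Morc1+/+ library added and -0.35 to 0.32 without 1 library in turn. Insl3 was -0.33, 0.0042 with the Morc1+/+ library added and -0.70 to 0.019 without 1 library in turn. Tmc2 was 0.19 and -0.019 to 0.38 without 1 library in turn. Aqp8 was 0.87 and -0.16 to 1.59 without 1 library in turn. Gja6 was -0.31 and -0.82 to 0.11 without 1 library in turn. Islr2 was 0.046, -0.067 with the replicate block and -0.41 to 0.47 without 1 library in turn. Krt8 was 0.55 and -0.24 to 1.14 without 1 library in turn. Rprm was -0.23, 0.0079 with the Morc1+/+ library added and -0.42 to 0.018 without 1 library in turn.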

Other observations

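The 47 genes that rose in Morc1tg/+ and fell in Morc1tg/tg, chosen after their values were seen, include the 3 below. Cox6b2, the testis subunit of cytochrome c oxidase, had mean levels of 15.1 and 9.74 RPKM in Morc1tg/tg at P10.5 and P14.5 and 16.1 and 53.7 in Morc1tg/+. Its change was -0.66 in the mutant (adjusted p = 0.0180, edgeR) and 1.75 in the control, a difference of -2.40 (adjusted p = 0.00111). The fall in the mutant was over the threshold without Morc1tg/tg P10.5 replicate 3 (0.0919) or P14.5 replicate 2 (0.0666). Uggt2, a glucosyltransferase of the endoplasmic reticulum, changed by -0.46 and 1.28 (difference -1.75, adjusted p = 0.000644). H2afx, the histone variant phosphorylated at meiotic breaks and over the sex body, changed by -0.33 and 0.63 (difference -0.96, adjusted p = 0.00153), and its calls held without each library in turn.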
